A study of Mus musculus with 16 samples.

Results

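The clustered protocadherin genes Pcdha, Pcdhb and Pcdhg were examined for Jarid2, for its methylated form and for H3K27me3. The members were all protein-coding genes of chromosome 18 in the GENCODE annotation of the mouse genome (NCBIM37, mm9) whose symbols begin with one of these 3 names, which gave 24 genes of 22359. They lie on the plus strand between 37089939 and 38001527, a stretch of 911.6 kb. This annotation holds the whole alpha cluster under 2 genes (Pcdha11, with 10 start sites, and Pcdha3) and the whole gamma cluster under 1 gene (Pcdhgc5, with 10 start sites), beside 21 Pcdhb genes. The genes alone therefore undercount the family, and the variable exons were located as well. They were taken as the reading frames of at least 1500 bp on the plus strand that align with an annotated protocadherin exon over at least 1500 bp. Of 64 such long frames 58 aligned, 14 in the alpha, 22 in the beta and 22 in the gamma cluster, the numbers in which RefSeq lists genes with these symbols. The 58 exons measure 2232 to 2652 bp each and 141.3 kb together, 15.5% of the locus. In the following, alpha and gamma exons are numbered along the chromosome and beta exons carry the symbol of their gene.

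Clustered protocadherins are adhesion molecules of neurons. Each variable exon has a promoter of its own and encodes an extracellular domain. In the alpha and gamma clusters it is spliced to constant exons that encode a shared intracellular end, whereas each beta gene consists of its variable exon alone. Single neurons use few of the promoters, and the combination gives a neuron its surface identity. Jarid2 is a partner of Polycomb Repressive Complex 2 (PRC2), the enzyme that places H3K27me3 on genes kept silent, and PRC2 also methylates Jarid2 itself. Jarid2-K116me2 is Jarid2 dimethylated at the lysine K116.

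The study mapped Jarid2 and Jarid2-K116me2 by ChIP-seq in E14, a mouse embryonic stem cell (ESC) line grown in serum with LIF, with 1 sample for each antibody and therefore no replicate error. H3K27me3 was mapped in 3 other ESC lines, all derived from Jarid2-/- cells. The KO line is Jarid2-/-, the WT line is Jarid2-/- rescued with a bacterial artificial chromosome (BAC) that carries Jarid2, and the K116A line is Jarid2-/- rescued with a BAC in which K116 is mutated to alanine. Each line was studied as undifferentiated ESC in serum with LIF and as embryoid bodies (EBs), cell aggregates made by the hanging drop method and kept without LIF for 8 days, with 2 replicates in each of the 6 groups. The BACs entered the genome through a transposon, so their sites and copy numbers are not those of the native gene. EBs hold a mixture of cell types, and fewer cells with the mark and less mark per cell cannot be told apart. The H3K27me3 lines and E14 are different cells, so values from both are set side by side and not tested against each other.

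The lists held 4992 peaks for Jarid2, 4502 for Jarid2-K116me2, and 1478 to 14125 for the 12 H3K27me3 libraries. The shortest was that of ES WT replicate 1, with 2 peaks in the locus, and the other 11 had 18 to 58. The replicate 2 list was the longer in each of the 6 groups. The study's supplement gives a read total for each library, which is not used here, and by those totals the shortest list did not come from the shallowest library. The reads behind a single peak are not in the files.

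Jarid2 was enriched on variable exons in all 3 clusters and on no constant exon. There were 37 Jarid2 peaks in the locus, and each of the 37 overlapped a variable exon. Jarid2-K116me2 gave 35 peaks, and each of the 35 did so as well. The Jarid2 list held 193 peaks on chromosome 18 and the Jarid2-K116me2 list 174, so that the locus took 19.2% and 20.1% of them. Of the length inside Jarid2 peaks in the locus, 80.7% lay on variable exons, and of that inside Jarid2-K116me2 peaks 87.1%. On the 3 constant exons of Pcdha11 and the 3 of Pcdhgc5 neither antibody covered a base. The first constant exon of Pcdha11 (37315809 to 37315867) was 10421 bp from the nearest Jarid2 peak, and the first of Pcdhgc5 (37984675 to 37984733) was 57976 bp away.

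Counted by exon, 34 of the 58 carried a Jarid2 peak and 31 a Jarid2-K116me2 peak. As background, a Jarid2 peak overlapped 9.55% of 1257 other genes' longest coding exons, taken where one exon held at least 1500 bp of coding sequence, and a Jarid2-K116me2 peak overlapped 8.35% of them. The shares of the variable exons, 58.6% and 53.4%, stand above this background. The other exons were taken wherever they lie in their gene, whereas each variable exon has a promoter of its own. Distance from a promoter was therefore not matched, here and where the same exons serve as background for H3K27me3. Counted by gene at start sites, as given below, the contrast was smaller. All 31 exons with Jarid2-K116me2 also had Jarid2, 3 had Jarid2 only, and 24 had neither.

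**Figure D1:**
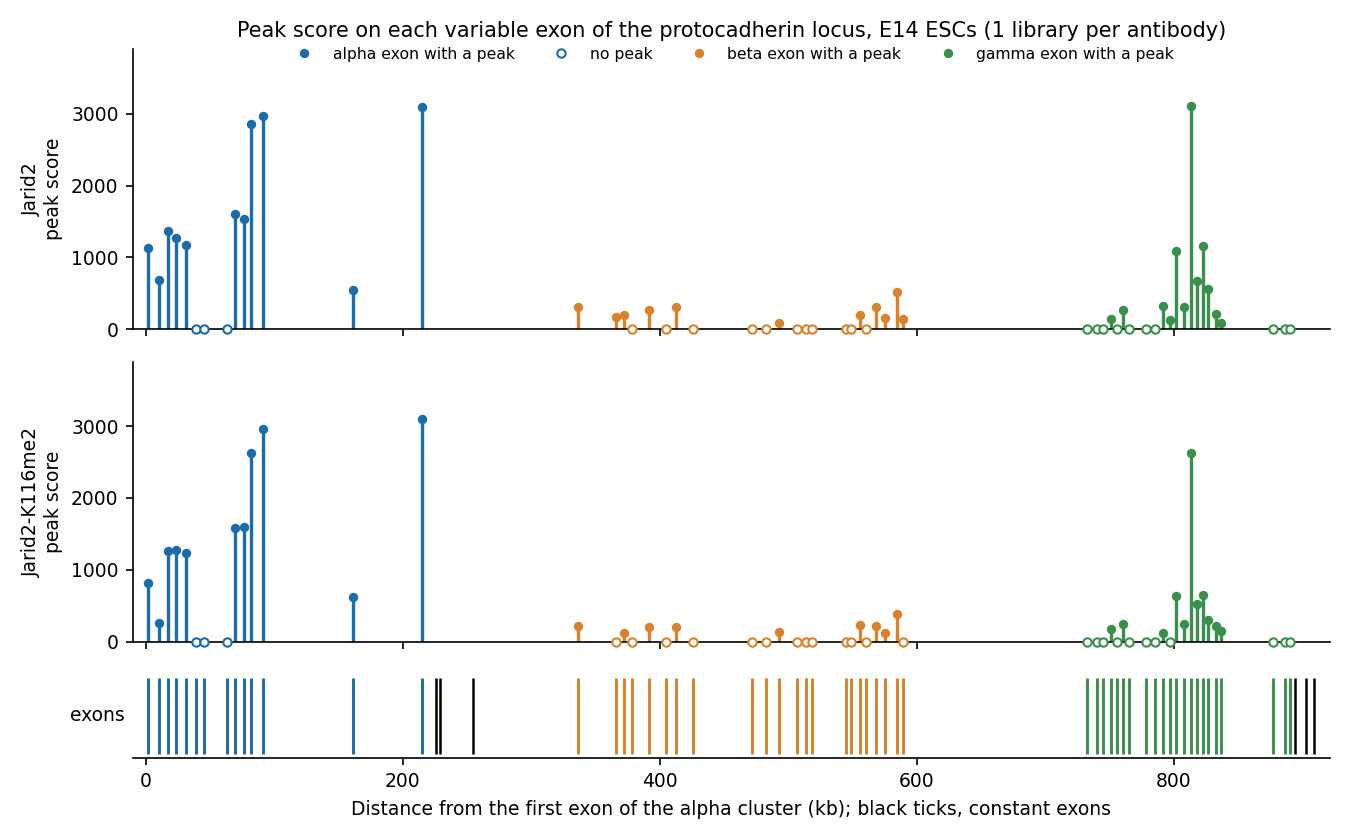
Peak score of Jarid2 (top) and Jarid2-K116me2 (middle) on each of the 58 variable exons against the distance from the first alpha exon in kb, in E14 ESC, with 1 library per antibody. The filled points are exons with a peak, the open points on the axis exons without one, and the lower track marks variable exons by cluster and constant exons in black. Jarid2 scores above 503, the median of its whole list, stand on 11 of 14 alpha exons and on 5 gamma exons. Jarid2-K116me2 scores above 707, the median of its list, stand on 9 alpha exons and 1 gamma exon. Beta scores stay at or below 524.

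The alpha exons had the highest scores as a cluster. The score of a peak is the log10 of its p-value multiplied by minus 10, which grows with the number of reads and piles up at 3100. A Jarid2 peak lay on 11 of 14 alpha exons, with scores from 549.7 to 3100 and a median of 1373. All 11 were above 503, the median of the whole Jarid2 list. Alpha exon 14 (37303623 to 37306196), the last before the constant exons, scored 3100 with both antibodies. Next came alpha exon 12 with 2972 for Jarid2 and 2966 for Jarid2-K116me2, and alpha exon 11 with 2857 and 2622. A coding gene on the minus strand that is no member, Gm10545 (37168523 to 37180333), starts inside alpha exon 12 and spans alpha exon 11. Peaks of that gene and of these exons cannot be told apart. Pcdha3, which holds alpha exon 3, scored 1373 and 1254. The 3 exons without any peak of either antibody were neighbours, alpha exons 6, 7 and 8 between 37127383 and 37154514. Both flanking exons had peaks over more than 98% of their length, with a Jarid2 score of 1173 on alpha exon 5 and 1602 on alpha exon 9.

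The beta exons had low scores. A Jarid2 peak lay on 11 of 22 and a Jarid2-K116me2 peak on 9 of 22. The Jarid2 scores ran from 80.7 to 524 with a median of 203, and 1 of the 11 was above the median of the list. That exon was Pcdhb21 (37673474 to 37675798), with 524 for Jarid2 and 388 for Jarid2-K116me2. No beta exon reached 707, the median of the Jarid2-K116me2 list. The beta exons with a Jarid2 peak formed 2 runs and 1 exon between them. The first run was Pcdhb1, Pcdhb2, Pcdhb3, Pcdhb5 and Pcdhb7, the second Pcdhb17 and Pcdhb19 to Pcdhb22, and Pcdhb11 stood alone at 80.7. Pcdhb2 and Pcdhb22 had Jarid2 only, with scores of 169 and 148. Pcdhb20 is a pseudogene in this annotation and no member gene, but its frame of 2400 bp was open and scored 157 for Jarid2 and 126 for Jarid2-K116me2.

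The gamma exons spanned the widest range. A Jarid2 peak lay on 12 of 22 and a Jarid2-K116me2 peak on 11 of 22. Exons 10 to 19 formed an unbroken run of 10, and the other two were exons 4 and 6. Gamma exon 14 (37901895 to 37904459) scored 3110 for Jarid2 and 2625 for Jarid2-K116me2. Its neighbours on either side were lower. Exons 12, 13, 15 and 16 scored 1094, 306, 667 and 1166 for Jarid2, and exon 19 at the end of the run 86.6. A noncoding RNA gene on the minus strand, Gm16882 (37906213 to 37927896), starts inside exon 19 and spans exons 15 to 18. Peaks of that gene and of these exons cannot be told apart. Gamma exon 11, at 124, had no Jarid2-K116me2 peak. No peak of either antibody lay on exons 1 to 3 or on exons 20 to 22, the 3 that stand apart from the others by a gap of 38.0 kb and precede the constant exons. The last exons before the constant ones thus differed between the clusters, with a score of 3100 on alpha exon 14 and no peak on gamma exon 22.

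By gene, 8 of the 24 members (33.3%) had a Jarid2 peak within 1 kb of a start site of a coding transcript, against 15.2% of all 22359 protein-coding genes. Jarid2-K116me2 was found at 4 of 24 (16.7%), near its background of 13.5%. The 8 were Pcdha11 with 3100, Pcdhgc5 with 3110, Pcdha3 with 1373, Pcdhb21 with 524, Pcdhb1 with 316, Pcdhb5 with 269, Pcdhb22 with 140 and Pcdhb11 with 72.4. The 4 with Jarid2-K116me2 were Pcdha11 with 3100, Pcdhgc5 with 2625, Pcdha3 with 1254 and Pcdhb1 with 216. These counts followed the window. With 5 kb in place of 1 kb they were 15 and 14, and when the peak had to cover the start site 4 and 4.

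The midpoints of the peaks lay mostly in the bodies of the exons, but many peaks were wide enough to cover the exon's first base too. On alpha exon 3, which starts at 37105861, the Jarid2 peak ran from 37105470 to 37108469. Of the 37 Jarid2 peaks 36 had their midpoint inside the exon, and the median midpoint was 1331 bp from the exon's first base (quartiles 976.5 and 1689). For Jarid2-K116me2 all 35 midpoints were inside, with a median of 1346 bp (quartiles 564 and 1659). Elsewhere in the genome, the 3514 Jarid2 peaks with a coding start site within 3 kb had their midpoint at a median of 299 bp downstream of it (quartiles -11.1 and 641), and the 3259 Jarid2-K116me2 peaks at 283.5 bp. The exon's first base is the start of its reading frame and not the start of transcription, so the 2 distances have different origins.

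The methylated form followed total Jarid2 across the exons. In the locus 31 of 37 peaks for Jarid2 were common to both antibodies (83.8%, with a 95% interval by Wilson's method of 68.9% to 92.4%, which covers counting error only), against 79.1% of the whole Jarid2 list. All 35 for Jarid2-K116me2 were common, against 98.7% of that list. The 6 Jarid2 peaks without Jarid2-K116me2 scored 71.1 to 169 and lay on Pcdhb2, Pcdhb11, Pcdhb22 (2 peaks), gamma exon 11 and gamma exon 17. On 4 exons, alpha 2, alpha 5, gamma 12 and gamma 16, a single Jarid2 peak stood over 2 separate Jarid2-K116me2 peaks.

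Over the 31 exons with both, the scores of the antibodies had a Spearman rho of 0.92, given as a description because the exons share both libraries. Beta and gamma exons had lower Jarid2-K116me2 scores relative to Jarid2 than alpha exons. On 10 alpha exons under 3100 the log2 of the Jarid2-K116me2 score minus that of Jarid2 had a median of -0.01, against 0.03 for the 2992 common regions of the genome under 3100. The beta exons had a median of -0.43 (n = 9) and the gamma exons of -0.33 (n = 10). On 7 of the 9 beta and 7 of the 10 gamma exons Jarid2 scored higher. In the whole genome Jarid2-K116me2 scored higher in 53.0% of the regions. The median Jarid2 score was 1373 on the alpha exons with a peak, 203 on the beta and 313 on the gamma exons. Common regions of like score were not compared, so cluster and height of the score cannot be told apart here. The largest differences were on gamma exon 10, with 319 for Jarid2 and 114 for Jarid2-K116me2, and on alpha exon 2, with 691 and 257. With 1 sample per antibody no replicate bears on these differences.

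**Figure D2:**
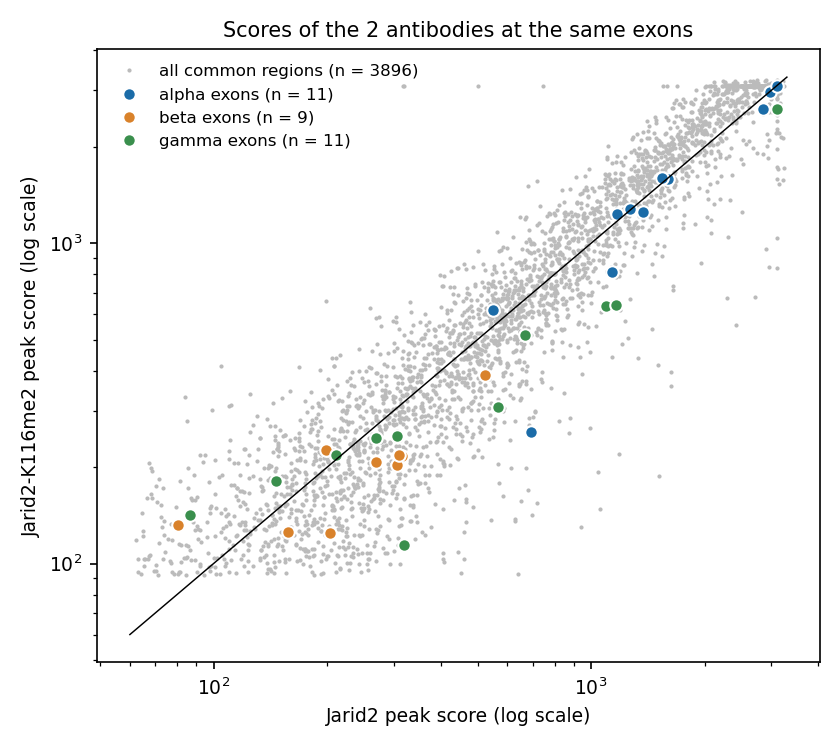
Score of Jarid2-K116me2 against score of Jarid2, both on log scales, for the exons with both peaks (11 alpha, 9 beta and 11 gamma) and, in grey, for all 3896 common regions of the genome, with the line of equal scores. Alpha exons follow the line except alpha exons 1 and 2, while 14 of the 19 beta and gamma exons with scores under 3100 lie below it.

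The exons also differed in sequence. The CpG ratio, the number of CG dinucleotides observed over the number expected from the C and G content, had a median of 0.66 in alpha, 0.438 in beta and 0.536 in gamma exons. The GC content hardly varied, from 48.2% to 55.5%. The 34 exons with a Jarid2 peak had a median CpG ratio of 0.598 and the 24 without one 0.441. In the gamma cluster the medians were 0.645 with and 0.445 without a peak, and in the beta cluster 0.468 and 0.418. In the alpha cluster they were 0.667 and 0.654, so that the 3 alpha exons without a peak were not CpG poor. Gamma exon 20 was a further exon with a high ratio, 0.694, and no peak. Conversely, alpha exon 14 scored 3100 at a ratio of 0.487.

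Over the 34 exons with a peak, score and CpG ratio had a Spearman rho of 0.51, but this rested largely on the differences between clusters. Within clusters rho was 0.09 over 11 alpha, 0.25 over 11 beta and 0.31 over 12 gamma exons. The share of an exon's stretches of 100 bp, the read length, that recur in the locus was at most 13.4%, on alpha exon 11, which scored 2857. On alpha exons 6, 7 and 8 it was 11.3%, 7.57% and 5.53%, and the part of such repeats in the missing peaks was not tested.

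**Figure D3:**
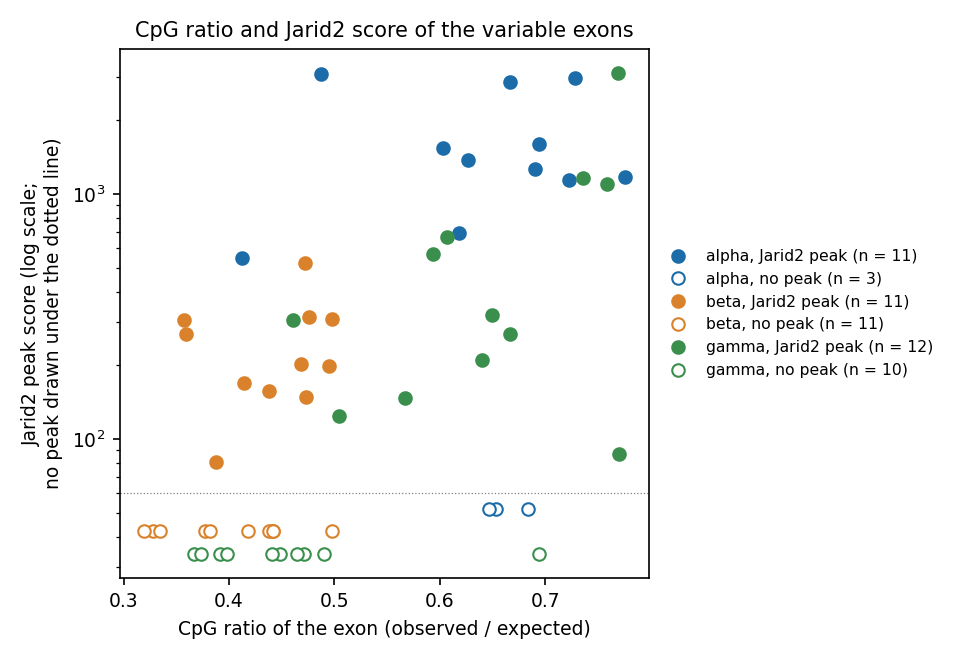
Jarid2 peak score (log scale) of each variable exon against its CpG ratio (observed over expected), by cluster, with exons without a peak drawn as open circles under the dotted line. Most exons without a peak lie at ratios below 0.5, and the exceptions are the 3 alpha exons and gamma exon 20 between 0.647 and 0.694.

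H3K27me3 in the same exons was examined next, in the 12 libraries of the 3 other lines. The alpha exons carried the mark in both stages. Of the 14 alpha exons 0 and 10 overlapped an H3K27me3 peak in the 2 replicates of ES WT, 7 and 11 in ES KO, and 11 and 12 in ES K116A. In EBs the numbers were 7 and 8 for WT, 10 and 10 for KO, and 6 and 10 for K116A. As background, other genes' long coding exons overlapped a peak in 1.11% and 7.56% of cases in the replicates of ES WT, 4.22% and 9.39% in ES KO, and 4.85% and 7.72% in ES K116A. In EBs the background was 6.05% and 6.52% in WT, 7% and 8.67% in KO, and 6.13% and 7.88% in K116A. The alpha share was 0% in ES WT replicate 1 and 42.9% to 85.7% in the other 11 libraries.

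H3K27me3 lay on 5 alpha exons, numbers 4, 9, 11, 13 and 14, in 6 of 6 EB libraries and in 5 of 6 ES libraries, ES WT replicate 1 being the exception. All 11 alpha exons with Jarid2 in E14 had H3K27me3 in at least 1 ES library. Of the 3 without Jarid2, alpha exons 6 and 7 had no H3K27me3 in any of the 12 libraries and alpha exon 8 had it in 1, ES K116A replicate 2. The exons between alpha 5 and alpha 9 were thus without Jarid2 and Jarid2-K116me2 in E14 and, apart from that library, without H3K27me3 in the other lines.

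On the beta exons, 1 and 12 of 22 overlapped an H3K27me3 peak in ES WT, 5 and 17 in ES KO, and 5 and 15 in ES K116A. In EBs there were 5 and 8 in WT, 4 and 9 in KO, and 1 and 5 in K116A. The beta shares were above the background of other genes' long coding exons in the same library, except in EB K116A replicate 1 (4.55% against 6.13%). Every beta exon with a Jarid2 peak in E14 had H3K27me3 in at least 1 ES library (11 of 11), against 6 of the 11 without one. The exons found most often were the ones near the end of the cluster. Pcdhb19 was marked in 6 of 6 ES and 4 of 6 EB libraries, and Pcdhb17 in 4 and 6. Pcdhb21 and the pseudogene Pcdhb20 were each marked in 5 and 5.

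H3K27me3 peaks lay on gamma exons in 5 of 6 ES libraries and 2 of 6 EB libraries. Of the 22 gamma exons 0 and 5 overlapped a peak in ES WT, 2 and 10 in ES KO, and 6 and 9 in ES K116A. In EBs 0 and 1 did in WT, 0 and 0 in KO, and 0 and 2 in K116A. The ES shares were above the background of other genes' long coding exons in the same library, except in ES WT replicate 1. The EB shares were below that background, except in K116A replicate 2 (9.09% against 7.88%). Both EB replicates were below both ES replicates in the KO and K116A lines. In the WT line the ranges overlapped, because ES WT replicate 1 had 0. The mark was on 12 gamma exons in at least 1 ES library and on 2 in an EB library, gamma exon 8 in 2 of 6 and gamma exon 14 in 1 of 6.

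On the gamma exons Jarid2 in E14 and H3K27me3 in the other lines coincided on some exons only. H3K27me3 was seen in ESC on 6 of the 12 gamma exons with Jarid2 in E14 and on 6 of the 10 without. Gamma exons 16 and 17 had Jarid2 scores of 1166 and 567 and no H3K27me3 in any library, and exons 10, 11, 18 and 19 had Jarid2 peaks and no H3K27me3 either. Gamma exon 8 had no Jarid2 peak and H3K27me3 in 5 of 6 ES libraries.

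**Figure D4:**
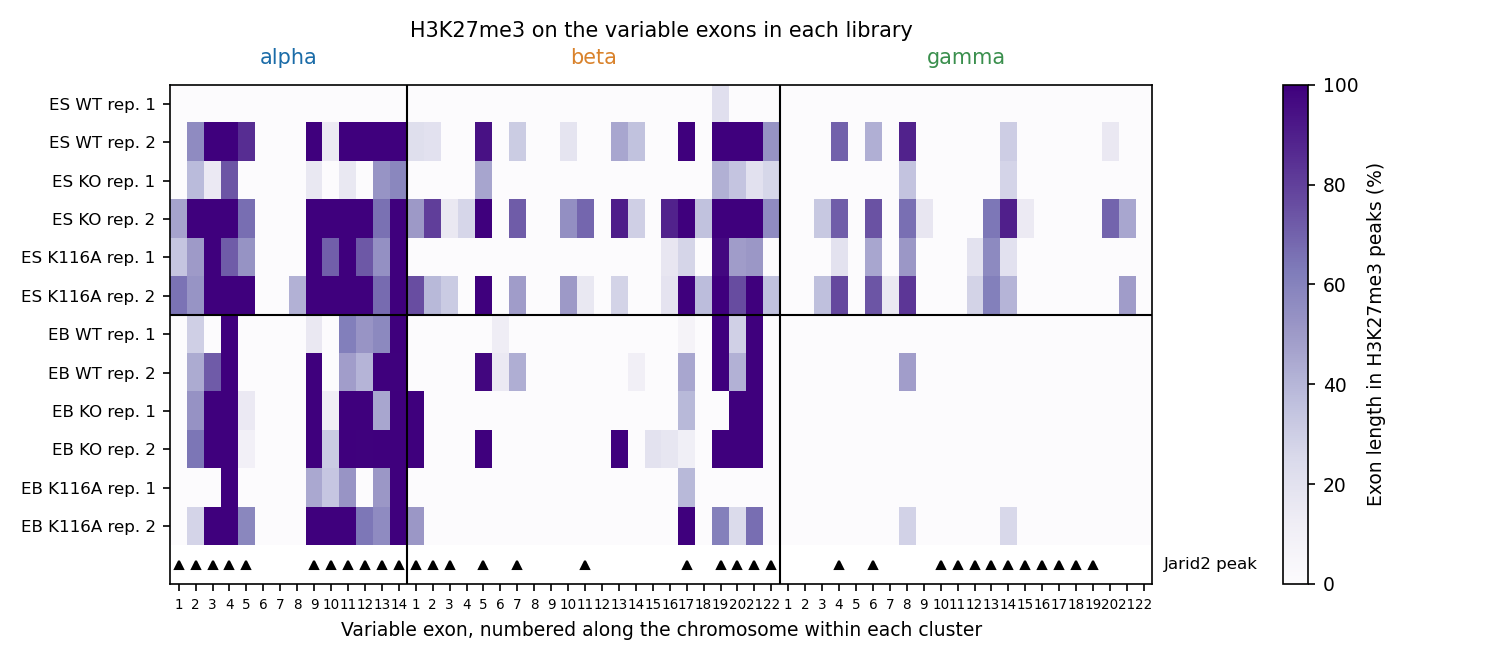
Share of each variable exon's length inside H3K27me3 peaks (colour, 0 to 100%) in the 6 ES and 6 EB libraries (rows), with exons ordered along the chromosome and triangles under the exons that had a Jarid2 peak in E14 ESC. The alpha exons are dark in both stages, the gamma exons are marked in ES libraries only apart from gamma exons 8 and 14, and alpha exons 6 and 7 are empty throughout.

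The stages were compared over libraries with an exact permutation test, two-sided, in which ES and EB labels were exchanged within each line (216 arrangements, smallest p = 0.0093). The share of gamma exons with H3K27me3 was 22.0 percentage points lower in EBs (exact permutation p = 0.028, adjusted p = 0.097 over the 7 stage comparisons made). By line, the mean share went from 11.4% ± 16.1 to 2.27% ± 3.21 in WT, from 27.3% ± 25.7 to 0% in KO and from 34.1% ± 9.64 to 4.55% ± 6.43 in K116A (SD, n = 2 each). For beta exons the difference was -17.4 points (exact permutation p = 0.278, adjusted 0.486). By line it was 0 points in WT, -20.5 in KO and -31.8 in K116A, with overlapping stages in each. For alpha exons it was 0 points (exact permutation p = 1), an average over lines that went opposite ways. The alpha share was 17.9 points higher in EBs in WT and 7.14 points higher in KO, with overlapping stages. The rise in WT rested on ES WT replicate 1, at 0%. ES WT replicate 2, at 71.4%, was above both EB WT libraries (50% and 57.1%). In K116A the alpha share was 25 points lower in EBs, and both EB libraries (42.9% and 71.4%) were below both ES libraries (78.6% and 85.7%). The difference between the lines was not tested. The difference between gamma and alpha, 22.0 points further down for gamma, had p = 0.056 by the same exact test and an adjusted p of 0.13. None of these passed after adjustment. Without ES WT replicate 1, the shortest list, the gamma and the beta difference were each -25.8 points (exact permutation p = 0.0093 and 0.065) and the alpha difference was -11.9 points (exact permutation p = 0.231). The difference between gamma and alpha then shrank to -13.9 points (exact permutation p = 0.102). The length of the lists moved with these shares. When every library was limited to its 1478 strongest peaks, the number in the shortest list, the gamma difference was -1.52 points (exact permutation p = 0.5), and few exons were left in any library.

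The place of the H3K27me3 peaks within the locus was measured as the share of the covered length that lay on variable exons. In ES libraries this was 43.4% and 26.8% for WT, 40.2% and 33.0% for KO, and 44.1% and 33.6% for K116A. In EB libraries it was 16.9% and 21.8% for WT, 16.9% and 14.1% for KO, and 26.3% and 24.5% for K116A. All 6 EB values were below all 6 ES values (the exons take up 15.5% of the locus). The difference was -16.8 points (exact permutation p = 0.0093, the smallest this design can give, adjusted p = 0.065 over the 7 comparisons). It was -15.7 points in WT, -21.1 in KO and -13.5 in K116A, with the 2 stages apart in each line, and -14.0 points without ES WT replicate 1 (exact permutation p = 0.0093). The covered lengths behind these shares were 1.18 to 198.9 kb in ES and 39.8 to 251.5 kb in EB libraries, and the median widths of the peaks in the locus were 590 to 1973 bp in ES libraries. In EBs the median widths were 2557 and 4682 bp for KO, 1802 and 2029 bp for WT, and 1190 and 1535 bp for K116A.

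**Figure D5:**
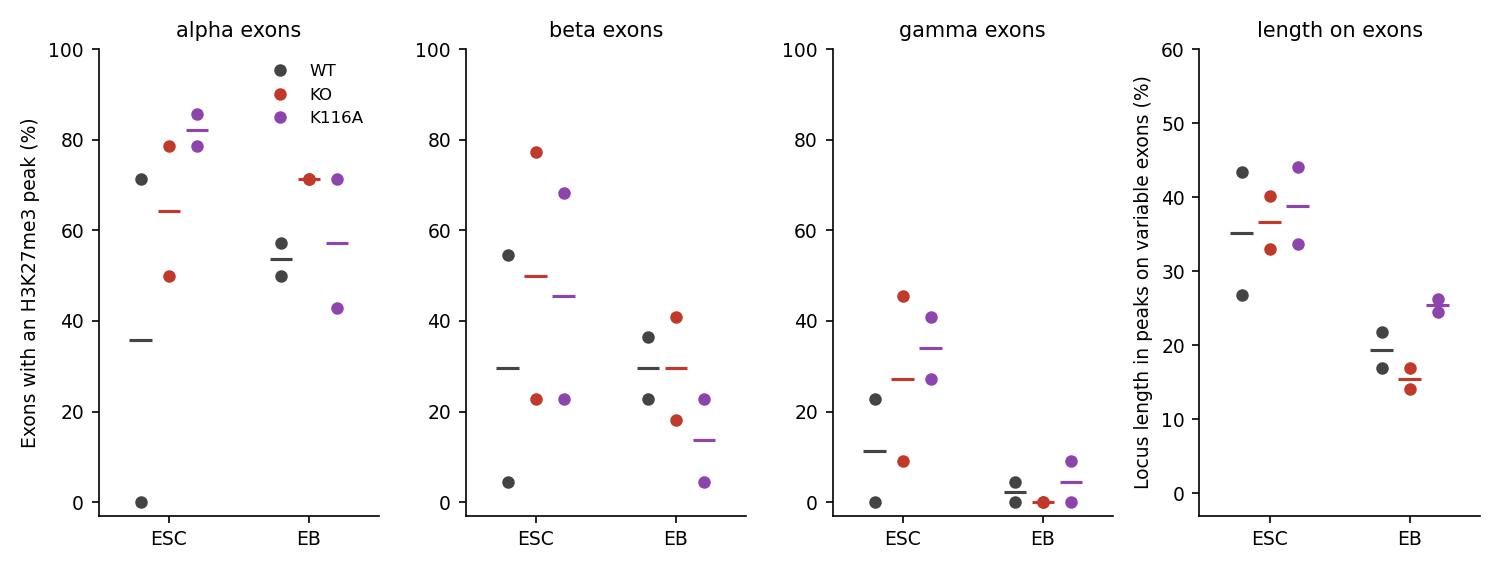
Share of alpha, beta and gamma exons that overlap an H3K27me3 peak and, in the right panel, share of the covered length of the locus that lay on variable exons, for each library (points, 2 replicates per line and stage) with group means (bars). The gamma shares are at most 9.09% in EBs against up to 45.5% in ESC, the alpha shares overlap between the stages, and in the right panel all EB points lie below all ES points.

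The covered length itself did not separate the stages. In ES libraries 1.18 and 165.3 kb of the locus were inside H3K27me3 peaks for WT, 30.4 and 198.9 kb for KO, and 69.9 and 170.02 kb for K116A. In EBs the values were 95.3 and 123.8 kb for WT, 153.8 and 251.5 kb for KO, and 39.8 and 115.98 kb for K116A. The 2 replicates of a group differed more than the stages did. The mean difference was 24.1 kb (exact permutation p = 0.62, adjusted 0.789), and it was negative, -131 kb, when the length was taken per 100 Mb covered in the whole genome by the same library.

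At the start sites of the 24 members, H3K27me3 peaks covered 0 and 8 genes in ES WT, 2 and 9 in ES KO, 3 and 9 in ES K116A, 3 and 4 in EB WT, 4 and 8 in EB KO, and 1 and 5 in EB K116A. Among all protein-coding genes, in the same order, such a peak was found at 0.492% and 8.29%, 3.5% and 11.4%, 3.88% and 9.16%, 6.84% and 6.39%, 8.17% and 10.8%, and 7.5% and 9.88%. The members were above the background in 10 of the 12 libraries, and below it in ES WT replicate 1 and EB K116A replicate 1. EBs were 4.17 points below ESC (exact permutation p = 0.676, adjusted 0.789), no more than the difference between the replicates of any group. Lines were compared with labels exchanged within each stage, and with 36 arrangements this exact permutation test cannot go below p = 0.056. KO exceeded WT by 8.33 points (exact permutation p = 0.444) and K116A exceeded WT by 3.13 points (exact permutation p = 0.778), both within the spread of the replicates.

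Outside the exons, H3K27me3 was also called between the clusters. Counting stretches of at least 200 bp, 4 without a variable exon lay between the clusters and inside peaks of all 6 EB libraries. A pair stood between the constant exons of Pcdha11 and Pcdhb1, at 37374262 to 37374808 with peaks of 3 of the 6 ES libraries over it and at 37379499 to 37380252 with peaks of 1. The others stood between Pcdhb22 and gamma exon 1, at 37732287 to 37733124 with peaks of 5 ES libraries and at 37807263 to 37811202, the longest with 3940 bp, with peaks of 2. This longest stretch lies between the start sites of Taf7 (37803858) and 3222401L13Rik (37815561), coding genes that are no members. None of the 4 had a Jarid2 peak in E14. The constant exons of both clusters were outside H3K27me3 peaks in all 12 libraries.

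Related genes elsewhere in the genome were taken for comparison. Of 12 non-clustered protocadherins 11 had a Jarid2 peak within 1 kb of a start site and 10 a Jarid2-K116me2 peak, with a median Jarid2 score of 2556. The highest were Pcdh7, Pcdh8, Pcdh10 and Pcdh17, each at 3100 with both antibodies. Of 19 classical and type II cadherins 11 had Jarid2 and 10 Jarid2-K116me2, led by Cdh2, Cdh8, Cdh11 and Cdh22 at 3100. Among 12 regulators of the clustered protocadherin promoters, such as the insulator protein CTCF and cohesin subunits, 1 had a peak, the DNA methyltransferase gene Dnmt3b with 207 for Jarid2 and 226 for Jarid2-K116me2. None of 5 intracellular partners had one. Among all protein-coding genes 15.2% had such a Jarid2 peak and 13.5% such a Jarid2-K116me2 peak. Lists of 12 and 5 genes are too short to tell the low counts of regulators and partners from these shares.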

How the data were processed

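ChIP-seq was done on formaldehyde-fixed chromatin, with single reads of 100 bp. According to the study's methods, reads were mapped to mm9 with Bowtie2 2.1.0 with 1 location kept for reads that fit several, and duplicates were removed. For the Jarid2 antibodies the authors called peaks with MACS 1.4.2 against input at an FDR of 0.15%, and the score column they deposited is minus 10 times the log10 of the p-value. For H3K27me3 the authors called broad peaks with MACS2 2.0.10 at an FDR of 5%, each replicate separately, and the scale of the deposited score is not given in the sources used here. No file holds read counts. The study's methods name the replicates 2 of H3K27me3 as the higher-quality ones. The 2 input samples of the 16 were not used here. A read placed at 1 of several locations can shift signal between similar exons.

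Peaks were compared with GENCODE vM1 (NCBIM37), whose chromosome lengths hold all peaks. Variable exons were found with blastn 2.17.0, and overlaps counted from 1 bp. The exact permutation tests used library values, with p-values adjusted by Benjamini-Hochberg. Overlap, reading frame and permutation functions were tested on simulated data and returned 9 of 9 known quantities. Python 3.11.15, numpy 2.4.6 and pandas 2.3.3 were used. The genes named were members with a peak within 1 kb of a start site, the first and last member of each cluster, and up to 4 genes with the highest Jarid2 score of each comparison list. C-type members were planned too, but Pcdhgc5 was the only such symbol among the members, and it stands for the whole gamma cluster. Genes inside the locus that are no members were named where they overlap a variable exon or flank the longest H3K27me3 stretch between the clusters. Single exons were named after their values were seen. The members and lists were chosen with earlier results of these data known, and the exon measures were added after the data had been seen. Replicates are separate biological samples in the study's methods. Alternatives changed the window, the overlap, the peaks kept, the replicates and their pairing. Sequences of the exons are not printed.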

Additional observations from a re-analysis of the deposited data

How the results depend on the processing

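Peak calls set most of the limits, since neither reads nor coverage are in the files. The number of members with Jarid2 at a start site was 8, and it was 4 when the peak had to cover the start site, 15 with 5 kb, 5 with the peak midpoint and 4 with the stronger 50% of the peaks. For Jarid2-K116me2 the number went from 4 to 14 with 5 kb. Of the exons, 17 kept Jarid2 in the stronger 50% of its list, and 10 kept Jarid2-K116me2, or 15 when at least 50% of the exon had to be covered. Common Jarid2 peaks went from 83.8% to 58.8% with the stronger 50% of both lists, each cut at its own median, 503 for Jarid2 and 707 for Jarid2-K116me2. All Jarid2 peaks of the locus above 503 overlapped a peak of the full Jarid2-K116me2 list. The partners lost by the cut scored below 707. Common Jarid2-K116me2 peaks went from 100% to 80% with an overlap of at least 50% of each peak. The cause of the other changes was not tested.

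For H3K27me3, the covered length difference between the stages turned from 24.1 to -5.58 kb with equal numbers of the strongest peaks and to -131 kb per 100 Mb. K116A minus WT turned from 3.13 to -4.17 points with a window of 1 kb. The gamma exon difference of -22.0 points was -10.6 (exact permutation p = 0.083) with at least 50% of the exon covered and -1.52 (p = 0.5) with equal numbers, and gamma minus alpha turned to 8.01 points there and was -5.84 points (exact permutation p = 0.648) with at least 50% covered. The cause was not tested. For the share of the covered length on exons equal numbers gave no value, because 3 libraries had no such peak in the locus. A minimum q could not be set, as the lists hold no q column, and a stricter list by q was not run.

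Leaving out 1 library at a time gave ranges of -9.72 to 1.39 points for EB minus ES at start sites, -3.98 to 52.2 kb for the covered length, 0 to 16.7 points for KO minus WT and -5.21 to 11.5 points for K116A minus WT. For exons the ranges were -11.9 to 11.9 points for alpha, -26.5 to -8.33 for beta, -28.0 to -15.9 for gamma, -30.1 to -13.9 for gamma minus alpha, and -19.5 to -14.0 for the length on exons (exact permutation p at most 0.019). The start site difference turned to 0.69 without ES KO replicate 2 and 1.39 without ES WT replicate 2, the covered length to -3.98 without ES KO replicate 1 and -3.26 without ES WT replicate 1, and K116A minus WT to -5.21 without ES WT replicate 1, -3.13 without ES K116A replicate 2 and -1.04 without EB K116A replicate 2. The gamma difference stayed at -22.0 with p = 0.065 (exact permutation) without either EB KO replicate. Gamma minus alpha was -30.1 (exact permutation p = 0.028) without ES WT replicate 2 and -25.2 (p = 0.0093) without EB K116A replicate 1, but -13.9 (exact permutation p = 0.102) without ES WT replicate 1.

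Same-numbered libraries deviated together in 14 of 15 pairs of groups over the exons (correlations of 0.03 to 0.63), and nothing in the labels says that a number marks a shared batch. With a replicate block the gamma difference of -22.0 had p = 0.0625 (exact permutation over 64 arrangements), and the length on exons, -16.8, had p = 0.031. No other side of the threshold changed under the block.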
